A study of Ovis aries with 16 samples.

Results

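SPATA4 (ENSOARG00000006752) and SPATA6 (ENSOARG00000003971) were taken by name, as 2 of the 25197 Ensembl genes measured in the testes of 16 adult Merino male sheep. The high diet group (well-fed, n = 8) received feed set for a 10% gain in body mass, and the low diet group (underfed, n = 8) feed set for a 10% loss, both for 65 days. All were rams of one breed kept in single pens, and the ration of each ram was reset weekly to keep it on target. The RNA came from mixed pieces of the top, middle and bottom of the right testis, with 1 library per sheep, so each value is an average over germ cells and somatic cells. Expression is given in CPM, the reads on a gene divided by all reads on genes in that library and scaled by a constant.

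Both genes carry the name "spermatogenesis associated" because their transcripts were found in the testis, mainly in germ cells. SPATA4 encodes a small protein with a calponin homology domain that is expressed almost only in the testis. SPATA6 encodes a protein of elongating spermatids that is needed to build the connecting piece, the structure that couples the sperm head to the tail, and mice without it produce headless sperm. Germ cells pass from spermatogonia through meiotic spermatocytes to spermatids inside the seminiferous tubule, where Sertoli cells nurse them.

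The libraries held 9552149 to 18230076 reads on genes in well-fed sheep and 7646547 to 14690953 in underfed sheep, so the low diet libraries were on average the smaller. TMM factors, which correct the library total for a few genes that take many reads, ran from 0.739 to 1.01 in well-fed and from 0.996 to 1.13 in underfed sheep, and the lowest was that of high diet replicate 8. All 24 marker genes of testis cell types that could be matched to an identifier, among them SYCP1 of meiosis and FSHR of Sertoli cells, had at least 16 reads in each library. No other gene overlapped SPATA4 or SPATA6 in the RefSeq annotation of a later sheep assembly, where SPATA4 lay between WDR17 and ASB5 and SPATA6 between SLC5A9 and AGBL4. None of these neighbours had an identifier here, and they were not analysed.

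SPATA4 expression was lower in the underfed group. In the 8 well-fed sheep the lowest CPM of SPATA4 was 169.9 (replicate 7), the median 234 and the highest 287 (replicate 1). In the 8 underfed sheep the lowest was 82.8 (replicate 6), the median 162 and the highest 231 (replicate 1). The groups overlapped, because underfed replicates 1, 2 and 7 lay above the lowest well-fed sheep, while 5 of 8 underfed sheep lay below every well-fed one. Of all genes tested, 3.29% had at least 5 underfed sheep below every well-fed sheep, 1.22% had at least 6 and 0.0359% had all 8. The low diet mean of 163 ± 49.4 CPM was 28.9% below the high diet mean of 229.9 ± 38.4 CPM (each mean ± SD, n = 8). The smallest number of SPATA4 reads in a library was 1044, for which counting error is 3.09% of the value, against a spread between sheep of 16.7% (well-fed) and 30.2% (underfed) of the mean.

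On the log2(TMM-scaled CPM + 1) scale the fold change of SPATA4, low over high diet, was -0.71 (standard error 0.21, 95% interval -1.15 to -0.26). In limma it had an adjusted p of 0.047 (Benjamini-Hochberg, over the 11148 genes that exceeded 5 CPM in 8 or more libraries). At an adjusted p under 0.1, 21.5% of these genes were called, 10.6% lower and 10.9% higher in underfed sheep. A more negative fold change than that of SPATA4 was found for 7.71% of the genes. Mean CPM was 1.41 times as high in well-fed sheep, which missed the further criterion of 1.5 that 5.42% of genes passed together with the adjusted p in this direction. After TMM scaling, a scale added after the values were seen, it was 1.59 times as high. SPATA4 thus met the criterion on the adjusted p and not that on the ratio of deposited values. Without TMM factors the fold change was -0.54 (adjusted p = 0.079 from limma), on a scale where the median of all genes moved from 0.01 to 0.17 and the split of called genes from 1181 lower and 1215 higher to 564 lower and 1747 higher.

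Taken alone, the difference in mean log2 value of SPATA4 had p = 0.0050 (exact permutation test, two-sided). It stayed between p = 0.0022 and p = 0.010 in the exact permutation test when each sheep was left out. The adjusted p from limma rose just above 0.1 without high diet replicate 5 (0.1002), low diet replicate 4 (0.106) or low diet replicate 6 (0.103), and was under 0.1 in the other 13 fits. With every library thinned to 7646547 reads the fold change was -0.68 (adjusted p = 0.053 from limma). SPATA4 and SPATA6 are both in lists of genes that the study had called different between the diets in these same sheep. Of the listed genes with a symbol, 90.3% had an adjusted p under 0.1 from limma here. The p-values of SPATA4 and SPATA6 are thus not independent evidence of a diet difference.

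SPATA6 took many more reads than SPATA4 and was also expressed less in underfed sheep. Its CPM in well-fed sheep was 936 at the lowest (replicate 7), 1366 at the median and 1702 at the highest (replicate 8). In underfed sheep it was 578 at the lowest (replicate 6), 1005 at the median and 1349 at the highest (replicate 1). Of the underfed sheep 3 of 8 lay below every well-fed sheep, fewer than the 5 of 8 for SPATA4. For both genes 4 of 8 well-fed sheep lay above every underfed sheep. The shares of all genes tested that reach these counts of 3 and 4 were not computed. Replicate 7 was the lowest well-fed sheep and replicate 6 the lowest underfed sheep for both genes. The low diet mean of 973 ± 229.8 CPM was 25.5% below the high diet mean of 1307 ± 245 CPM (each mean ± SD, n = 8). With at least 6552 SPATA6 reads in each library, counting error was at most 1.24% of a value.

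**Figure D1:**
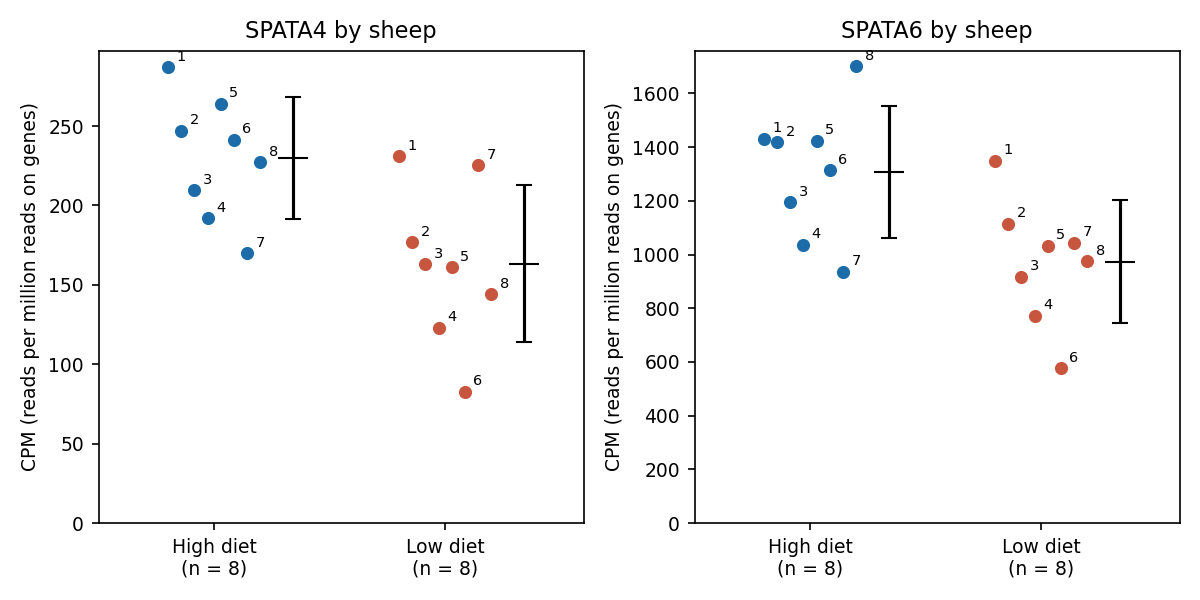
CPM of SPATA4 and SPATA6 in each sheep, by diet, on axes that start at 0. Each point is 1 sheep with its replicate number, and the bar beside each group is the mean ± SD (n = 8). Both genes averaged less in underfed sheep, SPATA4 at 163 against 229.9 CPM and SPATA6 at 973 against 1307 CPM, and the groups overlapped.

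The fold change of SPATA6 on the log2(TMM-scaled CPM + 1) scale was -0.61 (standard error 0.21, 95% interval -1.05 to -0.17, limma adjusted p = 0.068). Of the genes tested, 10.9% had a more negative fold change than SPATA6. Mean CPM was 1.34 times as high in well-fed sheep, also short of 1.5, and 1.53 times as high after TMM scaling. The difference in mean log2 value had p = 0.0078 (exact permutation test, two-sided), and between 0.0026 and 0.016 in the exact permutation test with each sheep left out. As for SPATA4, these p-values come from the sheep in which the study had called the gene different. The call from limma was less steady than that of SPATA4. On library totals the fold change was -0.44 with an adjusted p of 0.107 from limma, and without the filter on low values the adjusted p from limma was 0.132. The adjusted p from limma also passed 0.1 without high diet replicate 1 (0.113), 5 (0.133), 6 (0.117) or 8 (0.137) and without low diet replicate 3 (0.105), 4 (0.144) or 6 (0.147), and it was under 0.1 in the other 9 fits. High diet replicate 8 had the lowest TMM factor and the highest SPATA6 value on either scale, and without it the fold change was -0.50.

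**Figure D2:**
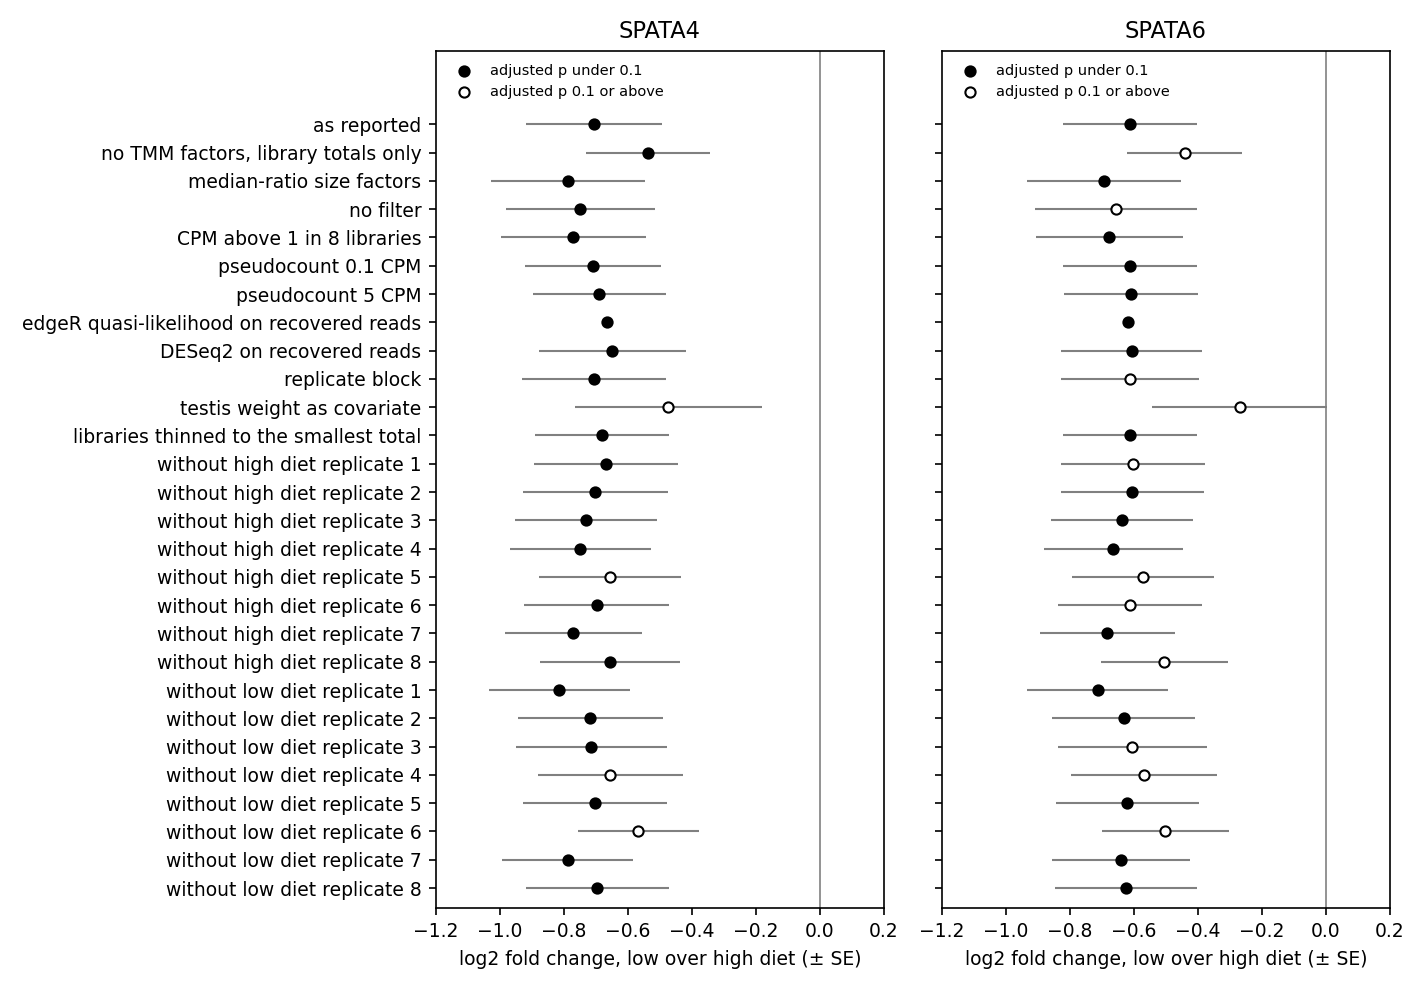
Log2 fold change of SPATA4 and SPATA6, low over high diet, as reported and under each alternative (± SE, except for the edgeR fit, which gives none). Filled points have an adjusted p under 0.1. All points lie below 0, from -0.81 to -0.47 for SPATA4 and from -0.71 to -0.27 for SPATA6, and those nearest 0 are from the fit with testis weight as a covariate.

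As both genes belong to germ cells and the tissue was sequenced in bulk, fewer germ cells and less RNA per germ cell cannot be told apart. Testis weight was one of the traits measured in the same sheep. It was taken at the end of the diets, and the paper refers to reduced testis mass in underfed rams. With testis weight as a covariate in limma, the fold change was -0.47 for SPATA4 (adjusted p = 0.849) and -0.27 for SPATA6 (adjusted p = 0.867). The standard error rose from 0.21 to 0.29 for SPATA4 and from 0.21 to 0.27 for SPATA6. In this fit 0 of 11148 genes passed the threshold, with 544 at an unadjusted p under 0.05, no larger a share than chance gives. As weight changed with diet, the fit cannot separate them. Whether testis size accounts for the fall of either gene was not tested.

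The sheep were ordered almost alike by both genes. Over the 16 sheep the log2 TMM-scaled values of SPATA4 and SPATA6 had r = 0.95 and rho = 0.96 (permutation tests, p = 1e-05 for each, the smallest that 100000 resamples can give). Within the well-fed sheep r was 0.91 (exact permutation test, p = 0.00097, n = 8) and rho 0.98 (exact permutation test, p = 0.00040, n = 8). Within the underfed sheep r was 0.94 (exact permutation test, p = 9.9e-05, n = 8) and rho 0.93 (exact permutation test, p = 0.0022, n = 8). With diet means removed r was 0.91 and rho 0.91 (permutation tests within diets, p = 1e-05 for each). Leaving out underfed replicates 4 and 6, farthest from the SPATA4 median, gave r = 0.90 (permutation test, p = 1e-05). Both values carry the scaling of their library, and on library totals r was 0.92 over 16 sheep, 0.79 in well-fed sheep alone and 0.94 in underfed sheep alone.

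Many genes of the table moved together across these testes, so the relation was set beside the rest. Over the 16 sheep 9.70% of genes had r above 0.8 with SPATA4 and 12.6% had r above 0.8 with SPATA6. For SPATA4, 20 of 11147 genes (0.179%) had an r at least as high as that of SPATA6. For SPATA6, 63 of 11147 genes (0.565%) had an r at least as high as that of SPATA4. With diet means removed these numbers were 87 and 119 genes.

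**Figure D3:**
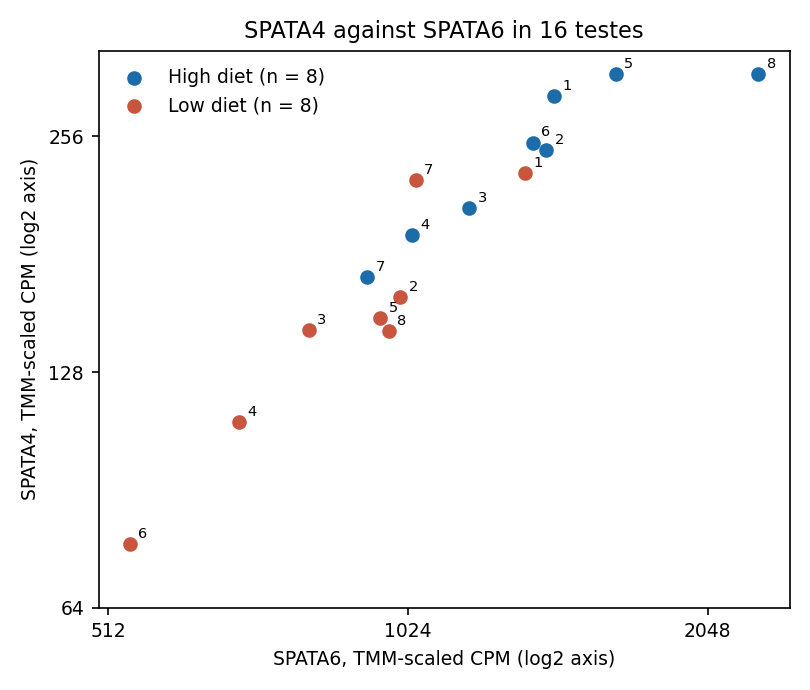
TMM-scaled CPM of SPATA4 against SPATA6 in each of the 16 sheep, both on log2 axes, with replicate numbers beside the points. The sheep lie along one line in both diets (r = 0.95), from low diet replicate 6 at the lower left to high diet replicate 8 at the upper right, where SPATA6 was 2303 and SPATA4 307.

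The ratio of the 2 genes within a library does not depend on how libraries are scaled, and its change measures whether one gene fell more than the other. SPATA4 CPM as a percentage of SPATA6 CPM was 13.3% at the lowest (replicate 8), 18.3% at the median and 20.1% at the highest (replicate 1) in well-fed sheep. In underfed sheep it was 14.3% at the lowest (replicate 6), 15.9% at the median and 21.6% at the highest (replicate 7). Reads were not divided by transcript length, so the percentage is of use only between sheep. The difference in mean log2 ratio, low minus high diet, was -0.10 (95% interval -0.28 to 0.10, from shifts that the exact permutation test did not reject), with p = 0.30 (exact permutation test, two-sided). A difference between the fold changes of the genes was thus not detected, and the interval allows SPATA4 to have fallen relative to SPATA6 by up to 0.28 on the log2 scale. The difference of medians was -0.20 (exact permutation test, p = 0.043). Well-fed replicate 8, whose ratio lay below the other 7 well-fed sheep, and underfed replicate 7, whose ratio was the highest of all, were the extremes.

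The genes whose pattern over the 16 sheep was most like SPATA4 were PIP (r = 0.97), SMCO2 (r = 0.97), ADAM21 (r = 0.96), IRAK1BP1 (r = 0.96) and ENSOARG00000015688 (r = 0.96), which has no symbol here. ADAM21 encodes a membrane metalloprotease-like protein of the testis. Those most like SPATA6 were PACRGL (r = 0.98), C2orf61 (r = 0.98), ENSOARG00000013411 (r = 0.97), PSMA6 (r = 0.97) and SPATA9 (r = 0.97). PSMA6 encodes a subunit of the proteasome core. With diet means removed the same 5 genes led for SPATA6, with r from 0.95 to 0.97. For SPATA4 only PIP stayed among the first 5 (r = 0.96), and the other 4 had no symbol. All 5 genes nearest to SPATA6 and all 5 nearest to SPATA4 over the 16 sheep had lower CPM in underfed sheep, with log2 fold changes from -0.98 (SMCO2) to -0.51 (ENSOARG00000015688) and adjusted p-values from 0.047 to 0.090 from limma. That direction follows from the choice of genes by their likeness to SPATA4 and SPATA6.

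Of 24 genes named SPATA with a number in the RefSeq annotation, 5 had an identifier here, because symbols came only from lists in the study's supplement that consist of genes it had called different between the diets. Of genes with a symbol 90.3% had an adjusted p under 0.1 from limma, against 8.57% of genes without one, so counts over named genes are not independent evidence of a direction. The 5 SPATA genes share a name and not a sequence family. All 5 passed an adjusted p under 0.1 from limma and all were lower in underfed sheep. SPATA22, which works with MEIOB in meiotic recombination, had the largest fall, from 172.5 ± 80.5 CPM in well-fed to 76.9 ± 41.9 CPM in underfed sheep (log2 fold change -1.45, standard error 0.41, adjusted p = 0.043 from limma). SPATA9 went from 184 ± 72.1 to 113 ± 49.0 CPM (log2 fold change -0.90, standard error 0.32, adjusted p = 0.078 from limma). SPATA17 went from 217 ± 84.8 to 148 ± 44.0 CPM (log2 fold change -0.69, standard error 0.27, adjusted p = 0.098 from limma). Over the 16 sheep SPATA9 followed SPATA4 with r = 0.95 and SPATA17 followed it with r = 0.87, and with diet means removed these were 0.94 and 0.82. SPATA22 followed SPATA4 less closely, with r = 0.68 and, with diet means removed, 0.44. On library totals SPATA6, SPATA9 and SPATA17 no longer passed, and 2 of the 5 genes did.

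The lists of testis cell types were matched in small part for the same reason, with 24 of 125 markers, and these are given for context only. Of 24 genes of spermatocytes and meiosis 11 were matched, and 10 of them were lower in underfed sheep at an adjusted p under 0.1 from limma, with a median log2 fold change of -1.17 over the 11. LDHC, the germ cell lactate dehydrogenase, averaged 717 CPM in well-fed and 390.3 CPM in underfed sheep (log2 fold change -1.02, adjusted p = 0.032 from limma). SYCP2, of the axial elements of meiotic chromosomes, averaged 838 and 447 CPM (log2 fold change -1.23, adjusted p = 0.074 from limma). SMC1B, the meiotic cohesin subunit, averaged 357 and 254 CPM, with an adjusted p of 0.171 from limma. Within this list the likeness to SPATA6 over the 16 sheep ran from r = 0.55 for SYCP1 to r = 0.95 for HORMAD2.

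Of 34 spermatid genes 3 were matched. CAPZA3, an actin capping subunit of spermatids, averaged 1043 CPM in well-fed and 710.4 CPM in underfed sheep (log2 fold change -0.76, adjusted p = 0.129 from limma). SPACA1, of the acrosome, averaged 250.04 and 159 CPM (log2 fold change -0.86, adjusted p = 0.051 from limma), and CATSPERB, of the sperm calcium channel, 98.5 and 29.1 CPM (log2 fold change -1.93, adjusted p = 0.014 from limma). TSGA10, of the sperm tail and the one match of 14 genes of the sperm neck and tail base, averaged 878 and 612 CPM (log2 fold change -0.68, adjusted p = 0.096 from limma). SPATA4 and SPATA6 were close to CAPZA3 and SPACA1, with r between 0.92 and 0.94 over the 16 sheep and between 0.88 and 0.92 with diet means removed. CATSPERB was less close, with r = 0.77 for SPATA4 and 0.84 for SPATA6 over the 16 sheep. With diet means removed its r was 0.52 and 0.73. For TSGA10 r was 0.80 with SPATA4 and 0.82 with SPATA6, and 0.69 and 0.74 with diet means removed.

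The somatic markers that were matched moved the other way, with 1 exception. All genes with a symbol had a median log2 fold change of 0.62, against 0.01 over all genes tested. A rise was thus common among named genes, and the counts below are not independent evidence of a direction. All 4 of 10 Sertoli cell markers with an identifier were higher in underfed sheep, FSHR with a log2 fold change of 0.71, CLDN11 with 0.87, WT1 with 1.18 and INHA with 1.27. Their summed level was 112 to 159.6 CPM in well-fed and 182 to 522 CPM in underfed sheep. The 3 of 6 peritubular markers matched were higher too, DES with a log2 fold change of 0.89, MYL9 with 1.05 and MYH11 with 1.25, and the leukocyte marker PTPRC had 0.80. STAR, of steroid synthesis in Leydig cells, was lower, with a log2 fold change of -1.45. In limma these 9 genes had an adjusted p between 0.018 and 0.060. Spermatogonial and endothelial markers were not matched. The part of cell mixture in the values of SPATA4 and SPATA6 was not tested.

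**Figure D4:**
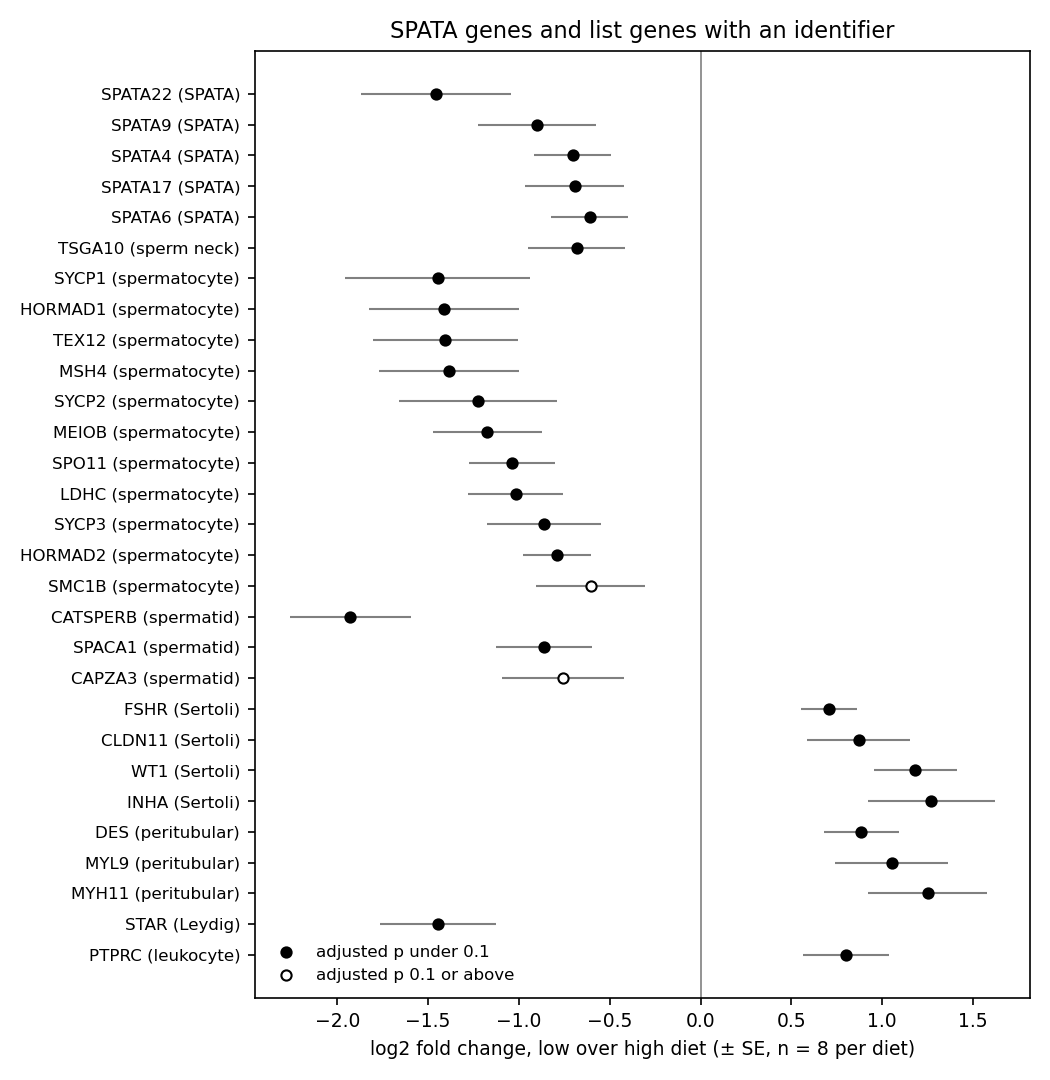
Log2 fold change, low over high diet (± SE, n = 8 per diet), of the 5 SPATA genes and the 24 matched markers of testis cell types, with the list of each gene in parentheses. Filled points have an adjusted p under 0.1. SPATA4 at -0.71 and SPATA6 at -0.61 lie among the less negative germ cell genes, and the matched Sertoli, peritubular and leukocyte markers lie above 0.

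Relative to the 11 spermatocyte genes of the same library, SPATA4 and SPATA6 averaged higher in underfed sheep, but a difference was not detected at 0.05. The log2 level of SPATA4 minus the mean log2 level of these genes averaged 0.95 ± 0.42 in well-fed and 1.37 ± 0.71 in underfed rams (each ± SD, n = 8), differing by 0.42 (exact permutation test, two-sided, p = 0.16). For SPATA6 the difference was 0.51 (exact permutation test, two-sided, p = 0.055), and it fell under 0.05 in 5 of 16 fits that left out 1 sheep, with p = 0.013 at the lowest. Against the 3 spermatid genes the differences were 0.48 for SPATA4 (exact permutation test, p = 0.0087) and 0.57 for SPATA6 (exact permutation test, p = 0.0017), but with the median in place of the mean of these 3 genes they were 0.16 (exact permutation test, p = 0.26) and 0.25 (exact permutation test, p = 0.086). Among the 3 spermatid genes CATSPERB had a log2 fold change of -1.93, against -0.76 for CAPZA3 and -0.86 for SPACA1. The comparison genes were at hand only because the study had called them different between these sheep. SPATA4 and SPATA6 are in the same lists of the study. Such a choice favours genes with a large change in either direction, on both sides of the comparison. These p-values thus cannot say whether SPATA4 and SPATA6 fell less than spermatocyte or spermatid genes at large.

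For the same sheep 6 testis traits were at hand, and the log2 TMM-scaled values of both genes were compared with each. On the change of scrotal circumference the diets did not overlap, so no pooled value is given for it. Over the 16 sheep 4 of 10 relations had an adjusted p under 0.05 by r. The permutations over 16 sheep ignored diet, so these pooled values also carry any difference between the diets in gene and trait. Testis weight gave r = 0.70 for SPATA6 (permutation p = 0.0021, adjusted 0.021), with rho = 0.71 (permutation p = 0.0028, adjusted 0.023). For SPATA4 it gave r = 0.62 (permutation p = 0.0095, adjusted 0.030), with rho = 0.62 (permutation p = 0.013, adjusted 0.032). With the volume of the seminiferous epithelium, the germ cell layer of the tubules, SPATA6 had r = 0.66 (permutation p = 0.0044, adjusted 0.022), with rho = 0.68 (permutation p = 0.0047, adjusted 0.023). SPATA4 had r = 0.60 with that volume (permutation p = 0.012, adjusted 0.030), with rho = 0.64 (permutation p = 0.0083, adjusted 0.028).

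Leaving out underfed replicates 2 and 3, which were farthest from the median weight, r was 0.73 for SPATA6 and 0.63 for SPATA4 (permutation tests, adjusted p = 0.025 and 0.042). The rho of 0.72 and 0.61 no longer passed (permutation tests, adjusted p = 0.051 and 0.083). Without the 2 farthest in epithelium volume, well-fed replicates 2 and 8, r was 0.53 for SPATA6 (permutation test, adjusted p = 0.071) and 0.51 for SPATA4 (permutation test, adjusted p = 0.076). On library totals no r of the 10 relations had an adjusted p under 0.05, the lowest being 0.084, while 5 of the 10 rho had an adjusted p of 0.046 (SPATA4 and SPATA6 with sperm number and with epithelium volume, and SPATA6 with testis weight). On that scale r with testis weight was 0.63 for SPATA6 and 0.51 for SPATA4.

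Within a diet no relation passed the adjustment. Within the well-fed sheep r with testis weight was 0.75 for SPATA6 (exact permutation test, p = 0.031, and 0.44 adjusted over 24 relations) and 0.63 for SPATA4 (exact permutation test, p = 0.10, adjusted p = 0.44). Within the underfed sheep r was 0.33 for SPATA6 (exact permutation test, p = 0.41) and 0.18 for SPATA4 (exact permutation test, p = 0.66), and without the 2 sheep farthest from their median weight, replicates 1 and 8, r was -0.17 and -0.06. With diet means removed r was 0.47 for SPATA6 (permutation test, p = 0.076) and 0.30 for SPATA4 (permutation test, p = 0.32), with an adjusted p of 0.91 at the lowest over 12 relations.

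For the other traits, r over the 16 sheep was 0.44 for SPATA4 and 0.49 for SPATA6 with sperm number per testis (permutation tests, adjusted p = 0.11 and 0.095), with rho = 0.53 and 0.57 (permutation tests, adjusted p = 0.052 and 0.048). Without underfed replicates 2 and 6, farthest from the median sperm number, r was 0.58 and 0.60 (permutation tests, adjusted p = 0.052 and 0.044). The rho without them was 0.58 and 0.60 (permutation tests, adjusted p = 0.083 for each). Over all 16 sheep r with tubule diameter was 0.48 for SPATA4 and 0.47 for SPATA6 (permutation tests, adjusted p = 0.095 for each), with rho = 0.53 and 0.49 (permutation tests, adjusted p = 0.052 and 0.062). The number of apoptotic germ cells per tubule had r = -0.43 with SPATA4 and r = -0.35 with SPATA6 (permutation tests, adjusted p = 0.11 and 0.18), with rho = -0.49 and -0.42 (permutation tests, adjusted p = 0.062 and 0.10). Without underfed replicates 2 and 5 r was -0.69 and -0.62 (permutation tests, adjusted p = 0.033 and 0.042), but rho was -0.38 and -0.37 (permutation tests, adjusted p = 0.20 for each), nearer to 0 than over the 16 sheep. Within the well-fed sheep the sign was the opposite, with r = 0.61 for SPATA4 (exact permutation test, p = 0.11) and 0.72 for SPATA6 (exact permutation test, p = 0.040, adjusted p = 0.44). Without well-fed replicates 2 and 8, farthest from their median, these r were 0.85 and 0.86. Within the underfed sheep r was -0.15 for SPATA4 and -0.09 for SPATA6, and -0.38 for each without underfed replicates 1 and 2. The difference between the diets in this relation was not tested.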

How the data were processed

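Testes of 16 sheep were sequenced as paired-end reads from stranded libraries, 1 per sheep. Per the study's methods and the submitters' processing notes, the authors used CASAVA 1.8, TopHat2 2.0.10 on Oar_v3.1 and HTSeq with the Ensembl annotation (strand setting not given in the sources used here). They deposited CPM, which are reads relative to the library total. Diets came from the labels. Each deposited CPM value was a whole multiple of 1 read (100% of values, within 0.01 of a whole number), so reads were recovered.

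CPM was divided by TMM factors over genes past the filter (more than 5 CPM in 8 or more libraries). Diets were compared by limma 3.58.1 on log2 values with a pseudocount of 1 CPM (trend on, edgeR 4.0.16, R 4.3.3). An adjusted p under 0.1 (Benjamini-Hochberg, all genes tested) was the threshold. The fit was checked on simulated counts drawn independently for each gene, so the check does not cover genes that move together. The study's further criterion, a ratio of mean CPM above 1.5, is given beside it, and a gene is named as called here on the adjusted p alone. Single values were tested by exact permutation and correlations with 100000 resamples or, within a diet, exactly (scipy 1.17.1). Counting errors cover counting only. No 2 libraries of a diet agreed within sampling noise (chi-square per gene at least 16.9).

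The genes named are SPATA4, SPATA6, SPATA genes past the filter, up to 3 genes of highest mean CPM in each marker list and the 5 genes most like each of SPATA4 and SPATA6. HORMAD2, SYCP1 and WT1 were named after their values were seen. The genes and lists were chosen with earlier results of these data known. Symbols (1763 identifiers) and traits came from the study's supplement, whose fold changes and p-values were not used. Alternatives covered the scaling, filter, pseudocount, test (edgeR, and DESeq2 1.42.0 on recovered reads), replicate block, testis weight and leaving out each sheep. Fits at equal depth, alternatives for the lists and the ratio on TMM-scaled CPM were added after the data were seen.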

Additional observations from a re-analysis of the deposited data

Results flagged for a closer look

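Among 16 groups of 8 values for SPATA4, SPATA6, their ratio and the other SPATA genes, 2 had a sheep set apart by more than Dixon's 95% critical value of 0.526 for the gap to its nearest neighbour divided by the range. Chance gives about 1 in 20 such groups. Well-fed replicate 8 had the lowest log2 ratio of SPATA4 to SPATA6 among the well-fed sheep, -2.91 against -2.52 for the next lowest (gap over range 0.653). The same sheep had the highest CPM of SPATA17 among the well-fed sheep, 396 against 251 for the next highest (gap over range 0.553).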

How the results depend on the processing

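The fold changes of SPATA4 and SPATA6 were negative under each alternative run. SPATA4 passed the threshold under all of them except testis weight as a covariate (-0.47) and 3 of the 16 fits that left out 1 sheep. Over all 16 of these fits its fold change was between -0.81 and -0.57. SPATA6 missed it on library totals (-0.44), without a filter (-0.66), with the replicate block (-0.61) and with testis weight (-0.27), and in 7 of the 16 fits without 1 sheep. Over all 16 its fold change was between -0.71 and -0.50. DESeq2 and edgeR on recovered reads gave -0.65 and -0.66 for SPATA4 and -0.61 and -0.62 for SPATA6, all past it. The number of genes called, 2396, was 1174 with the replicate block, 0 with testis weight and 738 to 3667 without 1 sheep. Of the 5 SPATA genes called, 2 were called on library totals, 2 without a filter, 2 with the block, 0 with testis weight and 1 to 5 without 1 sheep, with 3 or fewer without high diet replicate 1, 5, 6 or 8 or low diet replicate 3, 4, 6 or 8. Of 22 matched markers called, 0 were called with testis weight and 15 to 23 without 1 sheep. The cause of these losses was not tested.

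No pairing of the sheep by replicate number was detected, which does not exclude one. The deviations of same-numbered sheep from their diet means had correlations from -0.63 to 0.70 (mean -0.15), above 0.1 in 2 of 8 pairs, and 1 well-fed sheep correlated best with its own number. With the replicate block the adjusted p from limma was 0.094 for SPATA4 and 0.117 for SPATA6, and the exact sign-flip test over pairs gave p = 0.023 for each gene.

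The SPATA4 to SPATA6 log ratio differed by -0.20 in medians, and by -0.15 to -0.07 without 1 sheep. With the median of the spermatid genes the differences were 0.16 for SPATA4 and 0.25 for SPATA6. Relative to spermatocyte genes SPATA6 differed by 0.33 to 0.62 without 1 sheep, and SPATA4 by 0.18 (without low diet replicate 7) to 0.53 (without high diet replicate 2). Of the 4 relations to traits past the threshold by r, 0 were so on library totals and 0 with diet means removed, where r with tubule diameter turned to -0.047 for SPATA4 and -0.012 for SPATA6, and r of SPATA6 with apoptotic germ cells to 0.020. The correlation of SPATA4 with SPATA6 was 0.92 to 0.97 without 1 sheep. Depth did not limit SPATA4 or SPATA6, whose counting error was at most 3.09%.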
